A study of Mus musculus with 2 samples.

Results

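A divergent promoter is a stretch of DNA from which 2 protein-coding genes are transcribed in opposite directions, away from each other. The CTCF peaks at such promoters were taken from the pooled list of peaks on the mouse mm9 build, on the autosomes. A peak belonged to the set when its midpoint lay within 1000 bp of the start of a coding transcript whose neighbour on the other strand started at most 1000 bp away and pointed away from it. By this rule 89 of 38519 autosomal peaks (0.231%) lay at a divergent promoter, on all 19 autosomes. Another 2187 peaks lay within 1000 bp of a coding start with no divergent partner (here single-gene promoters), and 36243 lay elsewhere. Only position was used to choose the 89 peaks, so their strength, motif content and reproducibility were free to vary. Their place within the pair was free only inside the windows of that rule.

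The libraries were ChIP-seq with an antibody to CTCF in the male embryonic stem cell line E14TG2a.4, from mouse strain 129/Ola, whose labels give an age of 3.5 days and name no genetic change or treatment. There were 2 libraries, labelled biological replicates 1 and 2 of a single group, and both trace back to a single donor. Peaks carried a fold enrichment over control on the authors' scale. No read counts were given, so the depth was unknown, and n = 2 for every mean ± SD below.

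Divergent promoters usually lie in CpG islands, lack a TATA box and often serve housekeeping genes of DNA repair, mitochondria and the cell cycle. CTCF is a zinc-finger protein that binds a long motif, blocks contact between enhancers and promoters and stops cohesin at the base of chromatin loops. A CTCF site next to a shared promoter therefore lies close to the starts of both genes.

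The motif was learned from peaks away from promoters, so none of the 89 peaks shaped it. Its most frequent letters read GGCCAGAAGAGGGCGCCAG over 19 positions, and a match was a score of at least 13.6 bits, which 1% of 40000 flanking windows reached. These windows were scanned within 50 bp of their centre only, so a whole peak, being longer, can reach the threshold more often than 1%. Of the 89 peaks, 42 held a match anywhere in the peak. The sites below are 7 from peaks of high fold enrichment and the match of highest score, at Cox15/Cutc, whose peak was below the autosomal median, 5′ to 3′ on the strand of the motif, with the 19 motif positions in capitals. Coordinates are mm9, and 15 bases are shown on each side, or 5 at sites in or next to an untranslated exon.
Wrap53/Trp53, chr11:69392975-69393023, plus strand: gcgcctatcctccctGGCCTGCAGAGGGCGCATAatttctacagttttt
Nfkbil1/Atp6v1g2, chr17:35373456-35373504, minus strand: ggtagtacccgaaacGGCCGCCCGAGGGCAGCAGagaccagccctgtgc
Slx1b/Bola2, chr7:133839267-133839295, minus strand: cctccTGCCAGCAGGCGGCGCAGCaagtc
Aldh16a1/Pih1d1, chr7:52410486-52410534, plus strand: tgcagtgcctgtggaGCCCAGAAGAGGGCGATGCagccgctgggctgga
Erh/Slc39a9, chr12:81744019-81744067, minus strand: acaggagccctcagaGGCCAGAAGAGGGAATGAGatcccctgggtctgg
Parp3/Rrp9, chr9:106379306-106379354, minus strand: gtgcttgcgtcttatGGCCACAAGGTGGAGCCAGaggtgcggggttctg
Hscb/Chek2, chr5:111269724-111269772, plus strand: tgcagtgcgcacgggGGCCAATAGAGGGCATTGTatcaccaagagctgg
Cox15/Cutc, chr19:43827880-43827928, plus strand: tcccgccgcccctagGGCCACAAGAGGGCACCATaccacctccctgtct

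The scores of these sites were 15.5, 14.8, 14.1, 18.1, 19.2, 21.7, 18.6 and 26.6 bits in the order shown, and the site of Cox15/Cutc had the highest score of the 89 peaks. Each site is the best match of its whole peak. Those of Aldh16a1/Pih1d1, Erh/Slc39a9 and Hscb/Chek2 lay 208, 208 and 291 bp from the midpoint. Erh/Slc39a9 had another match, of 18.3 bits, within 50 bp of the midpoint. Strong peaks did not always hold a match. Among the 10 peaks of highest fold enrichment 5 held one, against 18 of the strongest 25. The best stretches in 3 of the strongest peaks without a match are shown next, with capitals again on the 19 positions. They scored 0.5 bits for 4930578N16Rik/Phospho2, 8.7 bits for Exd1/1500003O03Rik and 13.4 bits for Ruvbl2/Gys1, just under the threshold.
4930578N16Rik/Phospho2, chr2:69628596-69628644, plus strand: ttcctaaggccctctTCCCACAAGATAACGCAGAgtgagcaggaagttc
Exd1/1500003O03Rik, chr2:119372782-119372810, minus strand: tacccCGGCCGCAGGGGGCGCTGGgaatg
Ruvbl2/Gys1, chr7:52690165-52690213, minus strand: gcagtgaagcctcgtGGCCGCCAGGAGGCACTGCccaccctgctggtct

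A group of 4 sites resembled each other well beyond the motif, and they were picked out after 40 of the 42 sites had been compared. Any pair of these 4 shared 24 to 27 of the 30 flanking bases, while the median over all 780 pairs of sites was 8. Other sites were also alike, though less so. Erh/Slc39a9 shared 21 with Rnft2/2410131K14Rik, and Aldh16a1/Pih1d1 shared 20 with Cxcl16/Zmynd15. The peaks of the 4 had pooled fold enrichments of 19.97 (Dusp3/1700006E09Rik), 14.07 (4933432B09Rik/Cby1), 10.69 (Syngr4/Tmem143) and 4.64 (Bckdha/Exosc5), so sites of like sequence carried peaks from the upper to the lowest part of the range.
Dusp3/1700006E09Rik, chr11:101847107-101847155, minus strand: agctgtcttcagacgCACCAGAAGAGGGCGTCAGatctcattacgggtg
4933432B09Rik/Cby1, chr15:79488222-79488270, minus strand: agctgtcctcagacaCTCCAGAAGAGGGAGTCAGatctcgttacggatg
Syngr4/Tmem143, chr7:53153825-53153873, minus strand: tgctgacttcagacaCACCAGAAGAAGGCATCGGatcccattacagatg
Bckdha/Exosc5, chr7:26444732-26444780, plus strand: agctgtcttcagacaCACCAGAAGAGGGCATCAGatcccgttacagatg

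At 1 pair the motif lay on a transcription start itself. Atp6v1d encodes a subunit of the proton pump of lysosomes and Eif2s1 the alpha subunit of translation initiation factor eIF2. Their starts are 181 bp apart, and the interval with 9 bases beyond each start is shown on the plus strand, with the motif in capitals as it reads on that strand. Counted from the first base shown, Atp6v1d starts at base 10 on the minus strand, Eif2s1 starts at base 191 on the plus strand, and the motif covers bases 181 to 199. The motif itself is on the minus strand and scored 15 bits. The peak there had a fold enrichment of 20.86 in replicate 1, 20.28 in replicate 2 and 18.29 in the pooled list.
Atp6v1d/Eif2s1, chr12:79962616-79962815, plus strand: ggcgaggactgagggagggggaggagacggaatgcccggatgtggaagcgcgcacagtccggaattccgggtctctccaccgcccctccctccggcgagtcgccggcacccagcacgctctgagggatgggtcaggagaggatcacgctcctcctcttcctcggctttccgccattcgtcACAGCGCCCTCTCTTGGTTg

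The annotation held 1042 divergent pairs, made of 2073 of 21278 autosomal coding genes. Of these pairs 88 held a peak, or 8.45% (exact 95% interval 6.83 to 10.3%), and Abhd14a/Abhd14b held 2 peaks. The share was 7.68% in the list of replicate 1 and 7.39% in that of replicate 2 (mean 7.53% ± 0.204, SD, n = 2). Over all coding genes, 10.6% had a pooled peak within 1000 bp of a start. Of the 19205 genes with no divergent partner, 2062 had one, or 10.7% (10.3 to 11.2%), and the replicate lists gave 9.77% and 9.94%. The share of pairs was thus 0.787 times that of single genes in the pooled list and 0.786 and 0.744 times in the replicates. All intervals here cover counting error only.

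Windows differ in length, since a gene can have many starts. Per megabase of window, divergent promoters held 36.1 peaks (exact Poisson 95% interval 29 to 44.4), single-gene promoters 40.5 (38.8 to 42.3) and the autosomes as a whole 15.6. Promoters of both kinds were thus denser in peaks than the genome, and the interval of the divergent ones held the single-gene value. Replicate 1 gave 32.4 peaks per megabase at divergent and 36.7 at single-gene promoters, and replicate 2 gave 31.2 and 37.5. Counting peaks within 500 bp of a start lowered the density ratio from 0.890 to 0.652. No difference between kinds of promoter was tested, since the smallest p of an exact sign-flip test on 2 replicates is 0.5, and peaks and genes are not replicates.

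CpG content differed between the kinds of promoter. The CpG ratio is the number of CpG dinucleotides over that expected from base composition, and its median at the middle of the pair was 0.854 for pairs with a peak and 0.857 for pairs without, so the medians of pairs with and without a peak were close. At the outermost start of single genes it was 0.739 with a peak and 0.548 without. Among CpG-rich promoters (ratio 0.8 or more), 7.64% of 628 pairs (5.69 to 10%) and 11.2% of 6285 single genes (10.5 to 12.1%) had a peak. Among CpG-poor ones (ratio under 0.4) the order was the other way round, with 9.76% of 82 pairs (4.31 to 18.3%) and 4.24% of 7565 genes (3.8 to 4.72%). Single genes were counted at their outermost start alone in both comparisons, and these differences were not tested.

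The 10 strongest peaks at divergent promoters spanned pooled fold enrichments of 20.68 to 26.73, and all 10 were found in both replicates. Pooled values draw on both replicates, so this is a description only. The strongest lay in an intron of Wrap53 at Wrap53/Trp53, with its midpoint 734 bp from the nearer start (chr11:69392465-69393580). Trp53 encodes the tumour suppressor p53, and Wrap53 encodes a protein that carries telomerase to Cajal bodies. Its fold enrichment was 36.17 in replicate 1, 34.85 in replicate 2 and 26.73 in the pooled list, and relative to the median autosomal peak of each replicate it stood at 2.54 ± 0.068 (SD, n = 2). Over all autosomal peaks the pooled median is lower than either replicate median, so levels are compared within a list only.

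The peak of 4930578N16Rik/Phospho2 lay in an intron of Phospho2, which encodes a phosphatase. It had 26.4 in replicate 1, 37.7 in replicate 2 and 26.3 in the pooled list, and its value in replicate 2 was the highest of any of the 89 peaks in that list. The peak at 9430097D07Rik/Pip5kl1 had 34.06 and 32.56 in the replicates and 25.88 in the pooled list. That at Exd1/1500003O03Rik, where Exd1 encodes a protein of the piRNA pathway, had 30.36, 29.42 and 25.04. These 3 peaks, all on chromosome 2, held no match to the motif.

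Nfkbil1/Atp6v1g2 in the major histocompatibility region had 27.46 in replicate 1, 29.71 in replicate 2 and 24.05 pooled. Slx1b, a subunit of a DNA-junction endonuclease, and Bola2, an iron-sulfur cluster protein, shared a peak of 28.51, 29.99 and 23.91, with its motif 17 bp inside Slx1b. Ruvbl2, an ATPase of chromatin-remodelling complexes, and Gys1, the glycogen synthase of muscle, shared a peak of 24.55, 29.13 and 23.49. The midpoint at Ruvbl2/Gys1 lies in an untranslated exon, and its best stretch, under the threshold, lies between the starts.

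Efnb2, which encodes the Eph receptor ligand ephrin-B2, and 4921522P10Rik had a peak of 27.99 in replicate 1, 24.28 in replicate 2 and 22.37 pooled. Aldh16a1/Pih1d1 had 24.82, 24.56 and 20.82, where Pih1d1 encodes a partner of the Ruvbl ATPases in a co-chaperone complex. Erh/Slc39a9, where Slc39a9 encodes a zinc transporter, had 23.5, 22.28 and 20.68. In each of the 10 pairs both replicate values were well above the median autosomal peak of their list, 13.99 in replicate 1 and 14 in replicate 2. These pairs were picked by pooled values from the same libraries, so high values in both are no separate result.

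**Figure D1:**
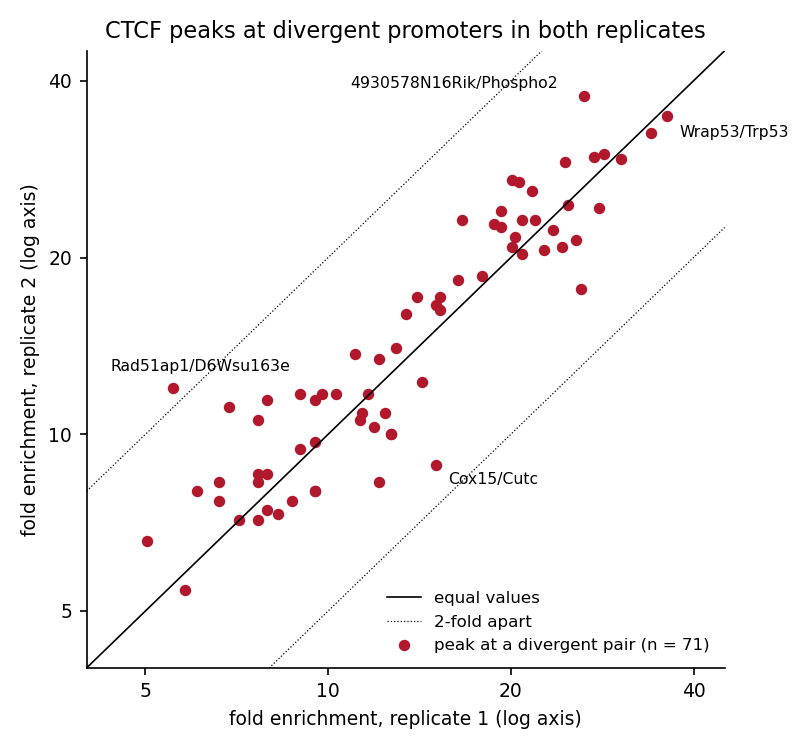
Fold enrichment of the 71 peaks at divergent promoters found in both replicates, with replicate 1 on the horizontal and replicate 2 on the vertical log axis. Points are peaks, the solid line marks equal values and the dotted lines values 2-fold apart. Rad51ap1/D6Wsu163e, at 5.54 and 12, lies outside the dotted lines.

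As a whole the set ran from strong to weak. Its median pooled fold enrichment was 9.99 (quartiles 7.31 and 18.29, range 4.22 to 26.73), beside 11.39 (7.17 and 16.18) at single-gene promoters and 12.1 over all autosomal peaks. In replicate 1 the medians were 12.14, 12.96 and 13.99 in the same order, and in replicate 2 they were 11.71, 13.14 and 14 (mean over replicates for the set 11.9 ± 0.304, SD, n = 2). The median of the set was thus below that of single-gene promoter peaks in all 3 lists, and in the pooled list its upper quartile was above theirs. Of the 89 peaks, 36 lay above the median of all autosomal peaks. The strongest 10% of autosomal peaks held 8 of the 89 (8.99%), and the weakest 25% held 30 (33.7%, against 31.0% of single-gene promoter peaks). Among the stronger 50% of peaks by the deposited −log10 p the order of the medians turned, to 1.16 times the single-gene median from 0.877 times.

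**Figure D2:**
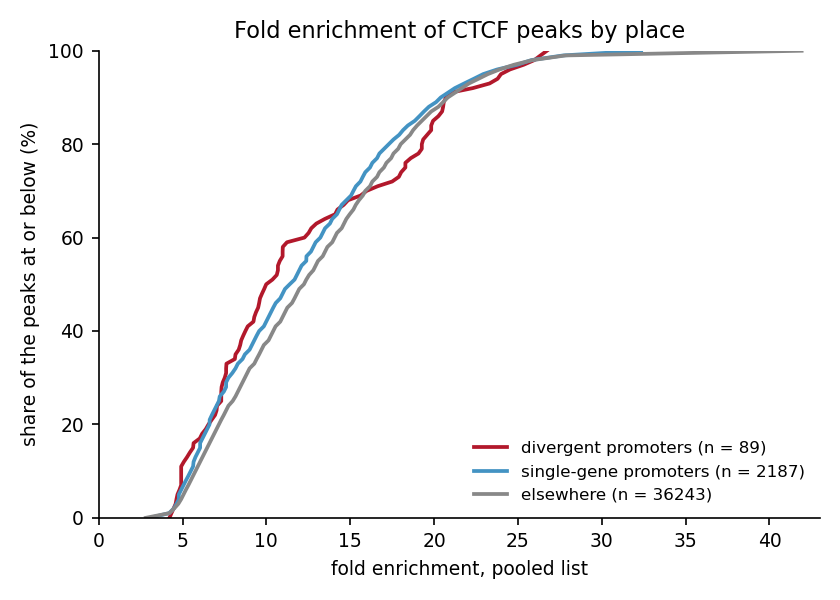
Share of peaks (vertical axis, %) at or below each pooled fold enrichment (horizontal axis) for the 89 peaks at divergent promoters, 2187 at single-gene promoters and 36243 elsewhere. The divergent curve crosses the single-gene curve, with medians of 9.99 and 11.39 and upper quartiles of 18.29 and 16.18.

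Of the 89 peaks, 71 were overlapped by a peak in both replicate lists (79.8%, exact 95% interval 69.9 to 87.6%), beside 86.2% of all autosomal peaks and 83.8% of single-gene promoter peaks. Strength separated them. The strongest 64, down to a pooled fold enrichment of 7.34 at Fen1/1810006K21Rik, were all found in both, and 7 of the other 25 were. The 4 found in replicate 1 only were Adam9/Tm2d2, Rnft2/2410131K14Rik, Hars/Hars2 and Urod/Hectd3, and another 7 were found in replicate 2 only. The 7 found in the pooled list alone had fold enrichments of 4.22 to 5.35, close to the bottom of the set.

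Where both replicates had the peak, they ranked the peaks alike, with a Spearman rho of 0.897 over 71 peaks, given as a description since the peaks share their libraries. Over all autosomal peaks found in both, rho was 0.907. Of the 71 peaks, 68 agreed within 1.5-fold (95.8%), close to 94.8% over all autosomal peaks and 93.8% at single-gene promoters. Largest toward replicate 1 was Cox15/Cutc, where Cox15 encodes an enzyme of heme A synthesis, with 15.05 in replicate 1 and 8.85 in replicate 2. Dtl/Ints7, where Dtl encodes a substrate receptor of a ubiquitin ligase and Ints7 a subunit of the Integrator complex, had 26.14 and 17.71, and Sirt1/Dnajc12, where Sirt1 encodes a protein deacetylase, had 12.14 and 8.28.

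Toward replicate 2, Rad51ap1/D6Wsu163e had 5.54 in replicate 1 and 12 in replicate 2, the only difference over 2-fold. Rad51ap1 encodes a protein of homologous recombination. Mfsd8/3110057O12Rik, where Mfsd8 encodes a lysosomal membrane protein, had 6.86 and 11.14, and Rrnad1/Isg20l2 had 7.92 and 11.43. Of these 6 pairs, Dtl/Ints7 had a pooled fold enrichment of 19.27 and the others 11.25 or less.

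Most peaks lay inside one of the genes rather than between them. Relative to the closest starts of each pair, 11 midpoints (12.4%, exact 95% interval 6.33 to 21.0%) lay between the starts, 29 on the side of the minus-strand gene and 49 on that of the plus-strand gene. The replicate lists gave 12.5% and 15.6% between the starts. The sequence between the closest starts made up 8.82% of the windows, so per megabase it held 50.5 peaks (exact Poisson 95% interval 25.2 to 90.4), beside 34.7 (27.4 to 43.2) in the rest, and the intervals overlap. By annotation 50 midpoints were in introns, 19 in untranslated exons, 9 in coding exons and 11 outside transcripts. Many genes have further starts, so a midpoint inside a gene can still be close to one.

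Peaks were wide (median 864 bp, range 640 to 2016), and 24 covered both closest starts, 15 covered 1 and 50 covered neither. The median distance from a midpoint to the nearest start that qualified for its pair was 504 bp. For single-gene promoter peaks it was 383 bp, to the nearest of all coding starts. Further starts of the paired genes did not count for the set, so these distances and the classes below are unlike measures. By distance, 33 peaks of the set lay within 250 bp, 11 beyond that and up to 500 bp, 21 up to 750 bp and 24 up to 1000 bp. For single-gene promoter peaks the shares fell steadily over these classes, at 35.6, 25.4, 19.8 and 19.2%, while those of the set were 37.1, 12.4, 23.6 and 27.0%. At the 1000 bp limit, Erh/Slc39a9 (984 bp, fold enrichment 20.68), Sbds/Tyw1 (963 bp, 7.46) and Sdhaf2/Cpsf7 (956 bp, 14.91) were just inside. Just outside were Plcd3/Acbd4 (1027 bp, 14.77), Map4k5/Atl1 (1031 bp, 4.78) and Kirrel2/Nphs1 (1034 bp, 4.64).

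**Figure D3:**
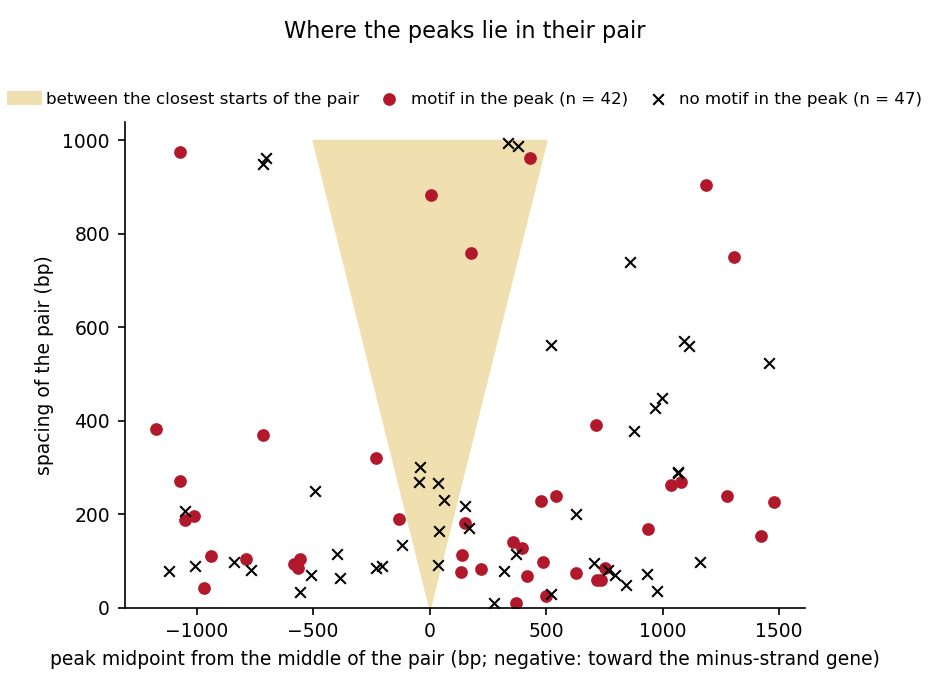
Midpoint of each of the 89 peaks from the middle of its pair (horizontal axis, bp) against the spacing of the closest starts (vertical axis, bp). Circles mark the 42 peaks with a motif match, crosses the 47 without, and the shaded wedge is the sequence between the starts, which holds 11 midpoints.

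Spacing of the starts ranged from 10 to 994 bp at the pairs with a peak, with a median of 168 bp over the peaks, and the median over all pairs was 134.5 bp. A peak was present at 33 of 403 pairs spaced up to 100 bp (8.19%) and at 17 of 278 spaced wider, up to 200 bp (6.12%). Of the pairs spaced wider than 200 and up to 300 bp, 16 of 134 had one (11.9%), and up to 500 bp 8 of 113 did (7.08%). The widest class, up to 1000 bp, had 14 of 114 (12.3%). The 95% intervals of all 5 classes overlapped, from 3.60 to 9.61% in the lowest to 6.88 to 19.7% in the highest. Overlap of intervals cannot decide whether the share changes with spacing, and a trend was not tested.

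**Figure D4:**
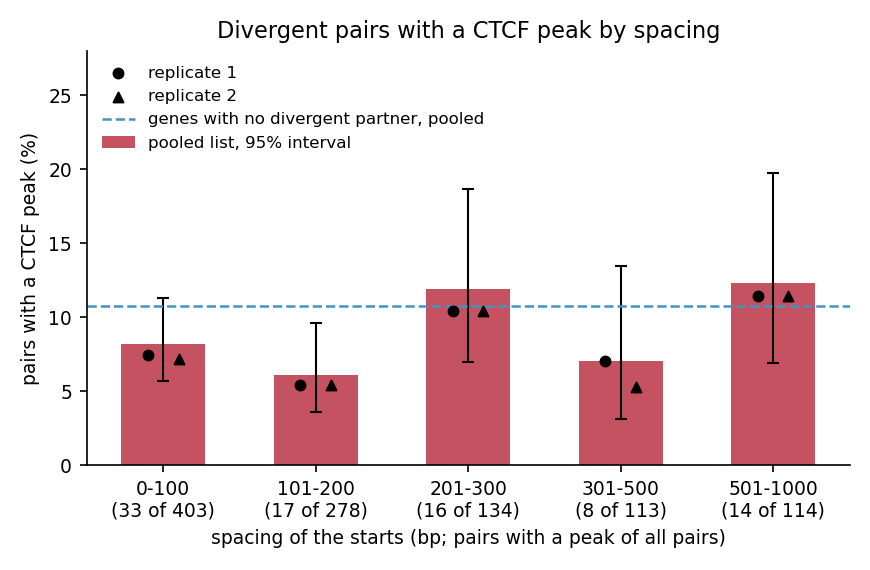
Share of divergent pairs with a CTCF peak (vertical axis, %) by spacing of the starts (horizontal axis, bp). Bars are the pooled list with exact 95% intervals, circles and triangles the replicates, and the dashed line the 10.7% of genes with no divergent partner.

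Within 50 bp of the midpoint 23 of the 89 peaks had a motif match (25.8%, exact 95% interval 17.1 to 36.2%), beside 29.2% of single-gene promoter peaks and 51.0% of peaks elsewhere, and 49.7% over all autosomal peaks. The replicate lists gave 30% (20.3 to 41.3%) and 16.9% (9.31 to 27.1%) for the set, beside 31.4% and 28.6% at single-gene promoters. Anywhere in the peak, the shares were 47.2% (36.5 to 58.1%), 51.2% and 71.4%. Peaks at promoters of both kinds thus held a match less often than peaks elsewhere. The motif was learned from 3000 of the peaks elsewhere and from no promoter peak, and its final matrix holds only the 1500 best-scoring sites of these. The comparison with peaks elsewhere is therefore not independent of how the motif was learned. The interval of the divergent set held the single-gene share in the pooled list and in replicate 1. In replicate 2 it did not, and the difference there was -11.7 percentage points, beside -3.38 in the pooled list and -1.38 in replicate 1. Members with a match had a median fold enrichment of 12.66 (n = 42) and those without 9.25 (n = 47), and 35 and 36 of them were found in both replicates.

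Among the 42 peaks with a match, the best match lay between the starts in 5, and it pointed into the nearer gene in 24 and away from it in 18. It lay in an intron in 29. The Spearman rho of the best score with fold enrichment was -0.102 over the 42 and 0.226 over all 89 peaks, beside 0.087 over all autosomal peaks, again as a description. Matches of very high score also sat in weak peaks, such as 24.4 bits at Banf1/Eif1ad, whose fold enrichment was 5.35 in the pooled list and which was found in neither replicate.

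Whether a pair had a peak went with the best motif in its window, which here ran 1000 bp beyond the closest starts. Of 270 pairs whose best score was under 5 bits, 8 had a peak (2.96%, exact 95% interval 1.29 to 5.75%). The share was 4.59% of 458 pairs at 5 to 10 bits, 10.3% of 214 at 10 to 15 bits, 31.9% of 69 at 15 to 20 bits and 48.4% (30.2 to 66.9%) of 31 at 20 bits or more. In replicate 1 the lowest and highest of these classes had 2.59% and 41.9%, and in replicate 2 they had 2.96% and 38.7%. Single-gene promoters, scored at the outermost start, rose over the same classes from 1.64% to 43.8%. A match lay in the window of 50% of pairs with a peak and 9.64% of pairs without.

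**Figure D5:**
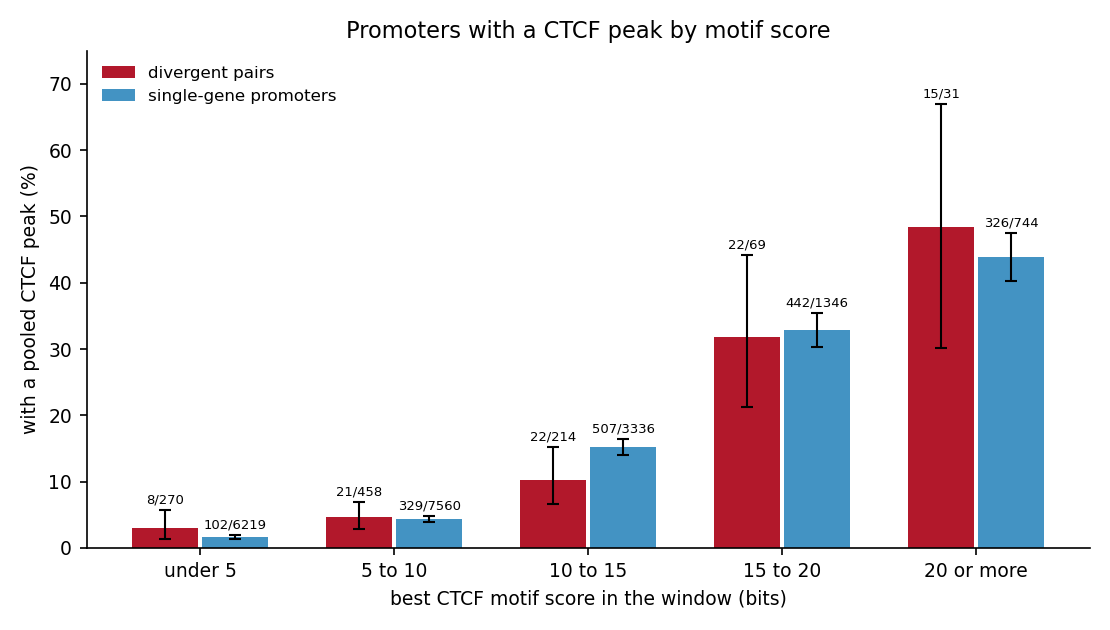
Share of promoters with a pooled CTCF peak (vertical axis, %) by the best motif score in the window (horizontal axis, bits). Red bars are divergent pairs and blue bars single-gene promoters at the outermost start, with exact 95% intervals and counts above. Both rise, to 48.4% and 43.8% in the highest class.

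Not every match lay in a peak. The windows of all pairs held 144 matches, of which 39 (27.1%, exact 95% interval 20.0 to 35.1%) lay in a pooled peak. The threshold also passes 1% of flanking windows outside every peak. A match outside a peak is therefore not shown to be a CTCF site left unbound. Inside a peak were 5 of 18 matches between the starts, 6 of 21 up to 250 bp into a gene, 7 of 27 from there to 500 bp and 21 of 78 from there to 1000 bp, all between 25.9 and 28.6%, with intervals as wide as 9.7 to 53.5% between the starts. Of 47 matches of 18 bits or more, 20 lay in a peak (42.6%, 28.3 to 57.8%), and by place these were 3 of 5, 1 of 1, 5 of 11 and 11 of 30 in the same order, too few to compare. Per megabase the sequence between the starts held 82.7 matches (exact Poisson 95% interval 49 to 130.7), the first 250 bp of the genes 40.5 (25.1 to 62), the next 250 bp 52.1 and the last 500 bp 75.3 (59.5 to 94). Matches were thus sparsest just inside the genes, with intervals that overlap.

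Short motifs of promoter factors were searched on both strands within 100 bp of the middle of the pair, or of the outermost start of single genes. The letters CCGGAAG of ETS factors such as GABPA were present at 20.5% of pairs with a peak and 23.2% of pairs without, and at 8.18% of single-gene starts. GGGCGG of SP and KLF factors was present at 39.8% and 58.3% of pairs, and at 39.3% of single-gene starts. CCAAT of NFY was present at 33.0% and 33.8% of pairs, and at 26.6% of single-gene starts. GCGCATGC of NRF1 was at 5.68% and 5.66%, and TATAAA, the TATA box, at 4.55% and 2.83%. Present at pairs with and without a peak were TGACGTCA of CREB and ATF factors at 6.82% and 3.88%, CACGTG of E-box factors at 10.2% and 8.39%, AAGATGGC of YY1 at 1.14% and 4.93% and ACTACAA of ZNF143 at 3.41% and 4.4%. GGGCGG showed the widest gap of the 9 motifs. Over all pairs the shares were 22.9% for ETS, 56.7% for SP, 33.7% for NFY, 5.66% for NRF1, 2.98% for TATA, 4.13% for CREB, 8.54% for E-box, 4.61% for YY1 and 4.32% for ZNF143. A match is a description of letters and not a bound site. The GC content at the middle of the pair was 60.7% with a peak and 63.2% without, and whether it had a part in the SP difference was not tested.

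The gene lists were read against the 8.45% of all pairs with a peak. DNA repair genes stood in 38 pairs, of which 5 had a peak, each in both replicates. Parp3, an ADP-ribosyltransferase that responds to DNA breaks, shared with Rrp9 a peak of 20.59 in replicate 1, 26.85 in replicate 2 and 20.4 pooled, with its motif between the starts. Hscb/Chek2, where Chek2 encodes a checkpoint kinase, had 22.71, 20.57 and 19.55. Weaker peaks included those at Rad51ap1/D6Wsu163e, at 8.58 pooled, and at Fen1/1810006K21Rik, at 7.34, where Fen1 encodes the flap endonuclease of replication. Lig4/Abhd13 and Xrcc4/Tmem167, both of end joining, had none.

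Pairs with a gene of the mitochondrial ribosome had a peak in 2 of 23 cases. Mrps12/Sars2, which encode a mitochondrial ribosomal protein and the mitochondrial seryl-tRNA synthetase, had 12.67 in replicate 1, 10 in replicate 2 and 10.97 pooled, and counted in 3 of the lists. Mrpl40/Hira, where Hira encodes a histone chaperone, had 5.81, 5.43 and 4.92. Mrps21/C920021L13Rik and Helq/Mrps18c had none. tRNA synthetase pairs had a peak in 2 of 11 cases, the second being Hars/Hars2, the cytosolic and mitochondrial histidyl-tRNA synthetases, at 4.92 pooled and 5.28 in replicate 1, with none in replicate 2.

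Proteasome pairs had a peak in 1 of 9 cases, Cep76/Psmg2, where Psmg2 encodes an assembly chaperone, at 21.91, 23.14 and 19.27. Cell cycle and replication pairs had one in 1 of 26 cases, Cdc123/Nudt5, at 8.71, 7.71 and 8.16. Orc3/Rars2, with a subunit of the origin recognition complex, had none, and neither had Mllt11/Cdc42se1, which entered that list by its symbol alone. No peak was found at 14 histone pairs, 13 of cytosolic ribosomal proteins, 22 of the respiratory chain or 20 of zinc finger genes named Zfp. Taking 3 counts over the number of pairs as the limit, a count of 0 allows shares of up to 21.4, 23.1, 13.6 and 15% for these 4 lists, above the share of all pairs, so none was distinguishable from it. Rps28/Ndufa7, Rps27/Rab13 and Ndufs1/Eef1b2 were among those with none. The lists for cohesin and CTCF and for pluripotency held 2 pairs (Zfpl1/Cdca5 and Mau2/Sugp1, no peak) and 0 pairs.

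Of the textbook divergent pairs, 10 were pairs under this annotation and 3 had a peak, among them Wrap53/Trp53 and Mrps12/Sars2. The 7 without a pooled peak included Surf1/Surf2, Psmb9/Tap1 (an immunoproteasome subunit and a peptide transporter), Hspd1/Hspe1 (the mitochondrial chaperonins), Brca1/Nbr1, Atm/Npat and Mcm4/Prkdc. The best motif scores of these 6 ran from 2.1 bits at Atm/Npat to 12 bits at Psmb9/Tap1, all below the threshold.

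Peaks at divergent promoters often had another CTCF peak nearby. The median distance to the nearest other pooled peak was 7.7 kb, beside 9.0 kb for single-gene promoter peaks and 11.1 kb for all. A neighbour within 10 kb was present for 55 of the 89 (61.8%), against 53.0% and 46.8%, and these differences were not tested. The CpG ratio within 100 bp of the midpoint had a median of 0.522, beside 0.41 at single-gene promoter peaks and 0.203 elsewhere.

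The authors' conservative set on mm10 was used as a second source, with starts from RefSeq and pairs matched to those above by gene symbol alone. It had 727 pairs, of which 67 held a peak summit (9.22%, exact 95% interval 7.21 to 11.6%), beside 10.4% of 15013 single genes. Of 477 pairs present under both annotations, 37 had an mm9 peak, and 32 of these had an mm10 summit, while 11 of the other 440 did. The 5 with an mm9 peak and no summit were Erh/Slc39a9, Rad51ap1/D6Wsu163e, Nup88/Rpain, Mrpl40/Hira and Bckdha/Exosc5. Wrap53/Trp53 had a signal of 266.9, or 3.47 and 3.19 times the median of the replicates. The median signal was 43.7 at divergent promoters, 68.2 at single-gene promoters and 78.4 over all peaks, and relative to each replicate's median it was 0.542 and 0.657 at divergent against 0.842 and 0.895 at single-gene promoters. The order of the medians was the same as on mm9, in both replicates. The replicate lists behind the mm10 set also hold background, so these relative values are not on the scale of the mm9 ones.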

How the data were processed

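Peak lists of 2 CTCF ChIP-seq libraries of E14TG2a.4 were used, per the labels biological replicates. The mm9 lists hold peaks per replicate and for both together, with a deposited fold enrichment (a ratio on the authors' scale) and a deposited −log10 p per peak. The mm10 conservative set and the replicate lists behind it hold a signal deposited by the authors, whose scale is not stated. Those replicate lists hold background besides peaks. No aligner or caller is named, these being not given in the sources used here. Depth is unknown, so precision rests on the number of peaks and the spread of 2 replicates.

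Gene starts came from GENCODE vM1 on NCBIM37, the build of the mm9 lists, whose peaks all lay within its chromosomes. Starts of protein-coding transcripts were used, and peak midpoints stood in for summits. A promoter was 1000 bp either side of a start. A 19 bp motif was learned from the 3000 strongest peaks outside promoters on odd-numbered chromosomes, with no motif given, and scanned on both strands. The final matrix was built from the 1500 best-scoring sites. Replicate values are those of the overlapping peak (at least 1 bp), and relative values on mm9 are divided by the list's autosomal median. On mm10 they are divided by a median of that replicate's signal. On mm10, summits within 1000 bp of RefSeq starts (GRCm38.p6) were counted, and no coordinates were converted. Intervals are exact at 95% (Clopper-Pearson, or Poisson for densities), and the limit for a count of 0 is 3 counts over the total. There is 1 group, so no groups were tested against each other. The motif model and the pair search were tested on simulated data. Python 3.11.15, numpy 2.4.6, pandas 2.3.3 and scipy 1.17.1 were used.

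The peaks, gene lists and named-gene rule were chosen with earlier results of these data known. Named are the pairs of the 10 strongest peaks, up to 4 pairs per list with the strongest peak and up to 2 without, the textbook pairs, the 3 peaks per direction with the largest ratio between replicates, and the peaks next to the 1000 bp limit. Other names were chosen after their values were seen. Some items that the rule takes are not reported here. Alternatives covered the spacing, window, starts, peak threshold, motif threshold and window, overlap, peak set and each replicate alone.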

Additional observations from a re-analysis of the deposited data

How the results depend on the processing

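No paired analysis was possible because the design has a single group. For the ratios and differences to single-gene promoters, densities included, the alternative settings were added after the data were seen. Using either replicate alone gave a share of pairs with a peak of 7.39 to 7.68% (8.45% pooled), a median fold enrichment of 11.71 to 12.14 (9.99 pooled, on a scale that differs between lists) and 12.5 to 15.6% of midpoints between the starts (12.4% pooled). The number of peaks became 44 within 500 bp of a start, 58 with the outermost start of each gene and 35 among the stronger 50% of peaks. The share of pairs became 7.65% for pairs at most 500 bp apart, 4.13% within 500 bp of a start, 7.12% with the outermost start, 3.36% among the stronger 50%, 9.03% with starts of noncoding transcripts, 12.2% with any overlap of the window and 9.22% on mm10. The median fold enrichment became 10.69 for pairs at most 500 bp apart, 10.55 with the outermost start and 19.27 among the stronger 50%. The motif share became 7.87% when 0.1% of flanking windows pass, 49.4% when 5% pass and 47.2% anywhere in the peak.

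The ratio of the share of pairs to that of single genes stayed below 1 in these alternatives, from 0.624 within 500 bp of a start to 0.890 on mm10. The ratio of median fold enrichments reversed, to 1.16, among the stronger 50% of peaks, where fewer peaks are compared. The difference in motif share reversed, to 0.961 percentage points, when 0.1% pass. The cause of either reversal was not tested. Counts of up to 89 peaks limit every share, the midpoint is not a summit in peaks of this width, a single ungapped motif matrix can miss sites, and unknown depth leaves undetected peaks without a limit.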
